A study of Homo sapiens with 4 samples.

Results

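The m6A level and the input RNA of 60 genes of ribosome biogenesis and the nucleolus were examined in X-rayed HEK293T cells. The 60 genes were taken by symbol from a list covering the snoRNP core proteins, the UTP, NOP, NOL, NOC, RRP, TSR and WDR families, the large-subunit assembly factors and the abundant nucleolar proteins, and the counts of all listed transcripts of a gene were summed. Of the 60 genes, 58 had counts among the 14911 gene names of the series, and 48 averaged 50 counts or more per library, as did 5320 genes in all. The 10 genes under that mean are given by their counts below, and WDR36 and RRP12 were not analysed here.

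The series holds 4 libraries, 1 per group: cells that carried a control shRNA (shCTL) and cells whose shRNA targets ALKBH5 (shALKBH5) each gave an input and an m6A-IP. HEK293T is a human embryonic kidney line that expresses SV40 large T antigen, and all 4 libraries came from cells treated with X-rays, so that no library of unexposed cells enters any comparison. The ALKBH5 shRNAs were carried on the lentiviral pLKO.1 vector. The methods give a dose of 10 Gy and harvest at 1, 12 or 24 h, and the study made 2 ALKBH5 knockdown lines. Which time and which line these libraries come from is not given in the sources used here. In m6A-seq, poly(A) RNA is fragmented and a part is pulled down with an antibody against N6-methyladenosine (m6A-IP), while the rest is sequenced as it is (input).

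Ribosomes are assembled in the nucleolus, where RNA polymerase I transcribes the precursor of the ribosomal RNAs. Small nucleolar RNAs (snoRNAs) packed with core proteins as snoRNPs guide the modification of this precursor, the small-subunit (SSU) processome folds and cuts its 5′ part into the precursor of the 40S subunit, and a separate set of factors builds the 60S subunit. The mRNAs of these factors are transcribed by RNA polymerase II and can carry m6A, which METTL3 and METTL14 write mostly at the letters RRACH (where R stands for A or G and H for any base but G), far from exon junctions, and which ALKBH5 and FTO can remove. Several of these genes also carry snoRNAs in their introns.

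The libraries held 2237819 counts (shCTL input), 3944402 counts (shCTL m6A-IP), 1311390 counts (shALKBH5 input) and 3148119 counts (shALKBH5 m6A-IP), and the members took 2.27% to 2.43% of each. ALKBH5, the targeted gene, had 486, 1432, 145 and 589 counts in the same order, and its share of the input was lower in shALKBH5 by a log2 difference of -0.97 (-1.25 to -0.70). Among the genes listed as markers of HEK293 cells, NEFL had 83 to 555 counts per library, while PAX2 and EYA1 stood at 0 to 2 counts. Of 9 markers of other cell types, PTPRC, CD3E, ALB, APOA1, KRT5 and KRT14 were at 0 in every library, and the summed 163 to 598 counts came almost wholly from COL1A1. Scaled to equal library totals (CPM), COL1A1 had 179 CPM in the shCTL input and 114 CPM in the shALKBH5 input, and its part in the results was not tested.

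Sequences from both ends of the order of m6A enrichment are shown first, because the same letters stand at both ends. GGACT, a frequent form of RRACH, was searched on the sense strand of the leading listed transcript of each gene, which is the transcript with the highest total count. It occurred at least once in 43 of the 48 members (89.6%) and in 93.3% of the 5292 tested genes with an annotated transcript. In shCTL, UTP3, RRP1, TSR3 and GNL3 had at least 1.5-fold more of the IP than of the input, and WDR75 and NOC3L were among the 3 lowest members. Each line gives the place of GGACT on hg38 (Gencode v44) and 10 bases on either side in the 5′ to 3′ direction of the transcript, with GGACT in capitals. RRP1 has 5 GGACT and NOC3L has 4, of which the 2 in each 3′ UTR are shown, while all GGACT of the other 4 genes are shown. UTP3, RRP1, GNL3 and WDR75 lie on the plus strand and TSR3 and NOC3L on the minus strand.
UTP3 first site, chr4:70689094-70689098: actatgacacGGACTatggttccaa
UTP3 second site, chr4:70689935-70689939: taaaaataggGGACTtactcctagg
RRP1 upstream 3′ UTR site, chr21:43804041-43804045: gcctgcagcaGGACTggccgcccct
RRP1 downstream 3′ UTR site, chr21:43804787-43804791: tgcagaccctGGACTgcatccggtt
TSR3 site, chr16:1349329-1349333: gctgctggcaGGACTgagctgtccg
GNL3 site, chr3:52693446-52693450: cctacatcttGGACTcctcctccat
WDR75 coding site, chr2:189450941-189450945: ttaaactgtgGGACTatatagatgg
WDR75 3′ UTR site, chr2:189475442-189475446: gaggatccttGGACTttgtgttttt
NOC3L upstream 3′ UTR site, chr10:94334154-94334158: tgaagtcagtGGACTttcttgtata
NOC3L downstream 3′ UTR site, chr10:94333877-94333881: aaaaatctttGGACTggatcttact

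Both UTP3 sites lie in the coding part of its 1 exon, and the RRP1 sites shown lie in the 3′ UTR within exon 13 of 13. The other 3 GGACT of RRP1 are in the coding sequence of exons 1, 2 and 3, at 15 to 40 bases from a junction. The TSR3 site is in the 3′ UTR of exon 6 of 6, and the GNL3 site in the coding sequence of exon 12 of 15, 40 bases from the nearest junction. The first WDR75 site lies in the coding sequence of exon 3 of 21, 25 bases from a junction, and the second in the 3′ UTR of exon 21. The NOC3L sites shown are in the 3′ UTR of exon 21 of 21, at 149 and 426 bases from the junction, and its other GGACT are 1 in the 5′ UTR of exon 1 and 1 in the coding sequence of exon 9. So GGACT over 100 bases from a junction was present in the highly enriched RRP1 and in the depleted NOC3L alike, and a match says nothing on whether the site is methylated.

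Levels were compared first within the shCTL input, as CPM per kb of the leading transcript, since longer transcripts give more fragments. NOP56 (1419 CPM per kb) and FBL (1130 CPM per kb), core proteins of the box C/D snoRNPs, and NCL (1416 CPM per kb), the abundant nucleolar RNA-binding protein nucleolin, stood above the other members on this scale. They were followed by NOC2L (550.4 CPM per kb), BOP1 (521 CPM per kb) and NOP53 (502 CPM per kb), factors of the 60S subunit. Among the 48 members with a mean of 50 counts or more, the lowest were HEATR1 (6.44 CPM per kb), UTP23 (8.03 CPM per kb) and GNL3 (10.2 CPM per kb). The levels went along with the number of transcripts of a gene that the tables list. The 33 members with 1 listed transcript had a median mean count of 689.75 and 31 of them reached the minimum, while the 25 members with 2 or more listed transcripts had a median of 84.5 and 17 reached it. How reads shared between transcripts were assigned is not given in the sources used here, so levels between genes are limited by it. NPM1, an abundant nucleolar chaperone, had 3 listed transcripts and only 79.7 CPM per kb.

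**Figure D1:**
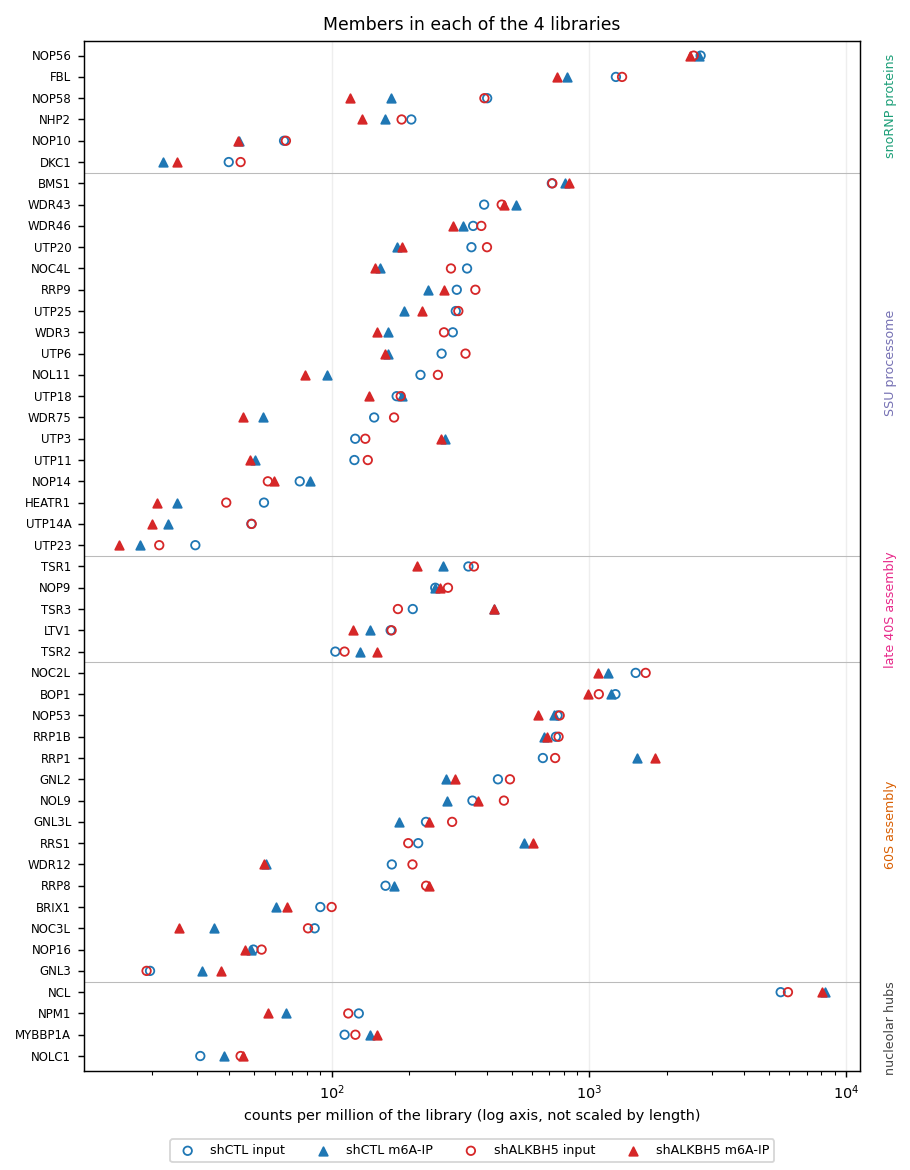
CPM, the counts scaled to equal library totals (log axis, not scaled by length) of the 48 members over the minimum, in rows grouped by role, with circles for input, triangles for m6A-IP, blue for shCTL and red for shALKBH5, 1 library each. The distance between circle and triangle is the m6A enrichment: the triangles of RRP1, RRS1 and TSR3 lie to the right of their circles in both cell populations and those of WDR12, WDR75 and NOL11 to the left.

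The m6A enrichment of a gene was log2 of IP over input, with 0.5 CPM added to each, so that 0 means the same share of both libraries. Values in brackets are 95% intervals from the counts alone. They cover counting error only: molecular identifiers are not named in the sources used here, and 1 library per group gives no replicate check. The members had a median enrichment of -0.33 in shCTL and -0.44 in shALKBH5, against -0.11 and -0.096 over all genes tested. In shCTL 5 members (10.4%) were enriched at least 1.5-fold, against 22.5% of all genes tested, and 18 members (37.5%) were at or under 1/1.5, against 30.3%. In shALKBH5 the same 5 members were enriched, against 24.3% of all genes tested, and 19 members (39.6%) were depleted, against 31.7%. The gap between the depleted shares depended on the setting: in shCTL the shares were 31.3% of members against 29.6% of genes with a trend on GC content removed, 37.0% against 35.8% when genes averaging 10 counts or more entered and 35.1% against 21.7% when the minimum was 200. UTP3, TSR3, RRP1, RRS1 and GNL3 were the enriched members. The order of the 48 genes was alike in the 2 cell populations (Spearman's rho 0.97 across genes, 0.93 over all 5320 genes), where genes are not independent replicates. Restricted to a mean of at least 200 counts, the median in shCTL was -0.33 for 37 members and 0.12 for all 2491 genes.

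**Figure D2:**
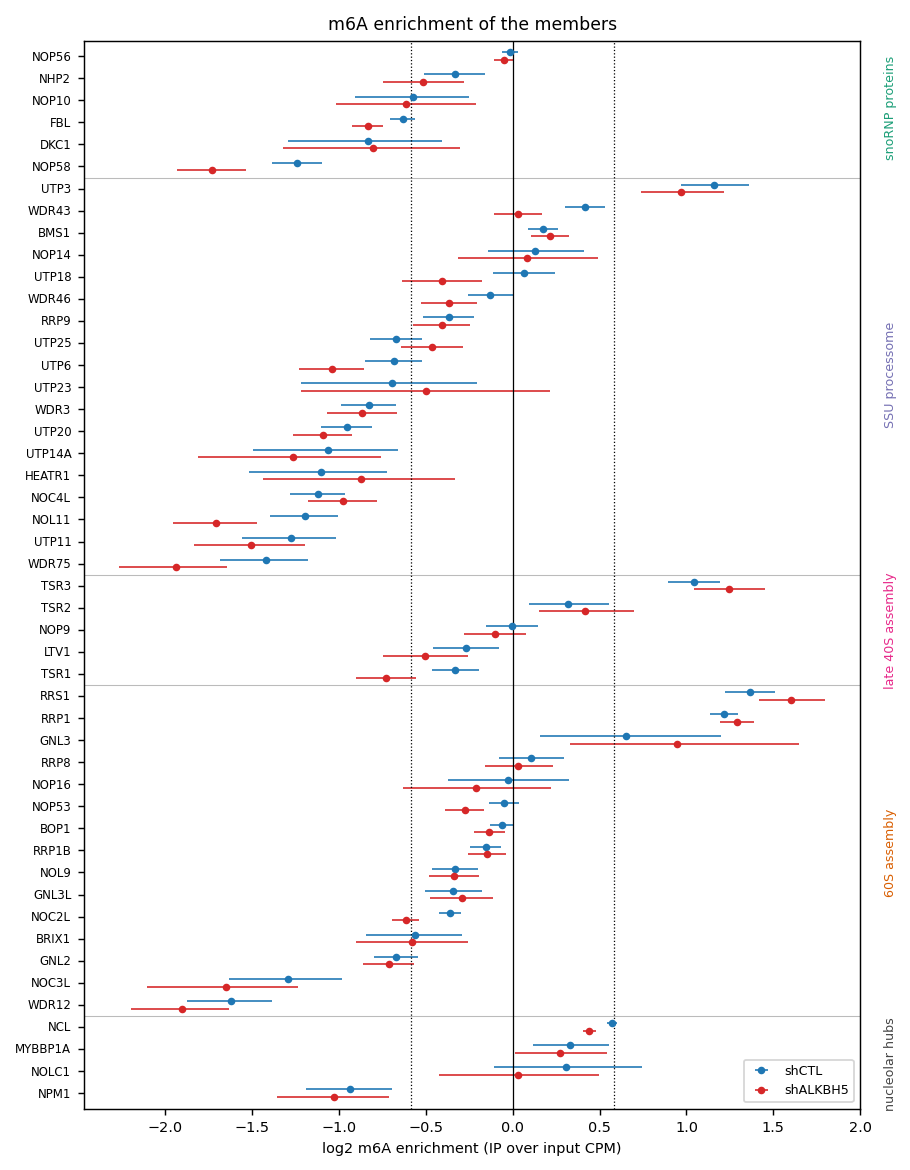
Log2 m6A enrichment (IP over input CPM) of the 48 members in shCTL (blue) and shALKBH5 (red), with 95% counting intervals as bars and dotted lines at 1.5-fold, grouped by role, 1 library per value. All 6 snoRNP proteins lie below 0, RRS1 is highest at 1.36 in shCTL and WDR12 lowest at -1.62.

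The snoRNP core proteins were all on the input side. All 6 that reached the minimum had an enrichment below 0 in both cell populations, with a median of -0.60 in shCTL and -0.71 in shALKBH5. Over all genes tested, 2900 of 5320 were below 0 in shCTL and 2855 in shALKBH5. In the order shCTL input, shCTL m6A-IP, shALKBH5 input and shALKBH5 m6A-IP, which is kept from here on, NOP58 had 402, 169.9, 392 and 118 CPM. FBL, the methyltransferase fibrillarin, had 1271, 819, 1344 and 753 CPM, and NOP56 had 2714, 2683, 2550 and 2463 CPM. Of these 3 box C/D proteins NOP58 was lowest, with an enrichment of -1.24 (-1.39 to -1.10) in shCTL, followed by FBL at -0.63 (-0.71 to -0.56), and NOP56 stood near 0 at -0.017 (-0.062 to 0.029). The box H/ACA proteins bind the guides of pseudouridylation, and DKC1, their pseudouridine synthase dyskerin, had 39.8, 22.1, 44.2 and 25.1 CPM and an enrichment of -0.84 (-1.29 to -0.41) in shCTL. NHP2 had 204, 161, 187 and 131 CPM and -0.33 (-0.51 to -0.16), and NOP10 had 65.2, 43.6, 66.3 and 43.2 CPM and -0.58 (-0.91 to -0.25). GAR1, the other protein of this complex, had 6, 12, 2 and 12 counts, too few for a value. The leading DKC1 transcript has no annotated coding sequence.

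The SSU processome, which folds and cuts the 5′ part of the precursor, had 18 members over the minimum, with a median enrichment of -0.69 in both shCTL and shALKBH5. In shCTL 11 of the 18 were at or under 1/1.5, against 30.3% of all genes tested, and 1 was enriched, against 22.5%. The exception was UTP3, a factor encoded by a gene of 1 exon, with 123, 276, 135 and 265 CPM and an enrichment of 1.16 (0.97 to 1.36). Lowest was WDR75, a subunit of the UTP-A complex that binds the precursor early, with 146, 54.3, 175 and 45.1 CPM and -1.42 (-1.68 to -1.18). Other UTP-A subunits spread widely, with NOL11 at -1.20 (-1.40 to -1.01), HEATR1 at -1.10 (-1.52 to -0.72) and WDR43 on the other side of 0 at 0.42 (0.30 to 0.53). NOL11 had 221, 96.1, 259 and 78.8 CPM, HEATR1 had 54.5, 25.1, 38.9 and 21.0 CPM and WDR43 had 391, 522, 458 and 467 CPM. The depleted members also held UTP11 (-1.28), NOC4L (-1.12), UTP14A (-1.06), UTP20 (-0.96), WDR3 (-0.83), UTP23 (-0.70), UTP6 (-0.68) and UTP25 (-0.67). BMS1, the GTPase of the processome and its member with the most counts, had 717, 808, 719.8 and 835 CPM and an enrichment of 0.17 (0.085 to 0.26). Near 0 were NOP14 (0.13), UTP18 (0.064) and WDR46 (-0.13), and RRP9, the protein that marks the U3 snoRNP, was at -0.37.

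Among the 5 members of late 40S assembly, TSR3, which modifies the 18S rRNA, had the most counts, with 206, 426, 181 and 429 CPM. It was enriched in both cell populations, at 1.04 (0.89 to 1.20) in shCTL and 1.24 (1.05 to 1.45) in shALKBH5. TSR2, a chaperone of a ribosomal protein of the small subunit, was at 0.32 (0.095 to 0.55) in shCTL. NOP9 stood at -0.0042 (-0.15 to 0.15), while LTV1 (-0.27, -0.46 to -0.078) and TSR1 (-0.33, -0.47 to -0.19), factors that sit on the 40S precursor, were below 0.

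The 15 members of 60S assembly held both ends of the order in shCTL, with a median of -0.16 in shCTL and -0.28 in shALKBH5. RRS1, needed for the 5S particle to join the 60S precursor and encoded by 1 exon, had 217, 558, 198 and 603 CPM, and its enrichment of 1.36 (1.22 to 1.51) in shCTL was the highest of all members. RRP1, a nucleolar factor with the most counts of this group, had 661, 1535, 738 and 1803 CPM and 1.21 (1.13 to 1.30). Its paralog RRP1B was at -0.16 (-0.25 to -0.066), so that the pair differed by more than their counting intervals. GNL3, the GTPase nucleostemin, had 19.7, 31.2, 19.1 and 37.2 CPM, and its 0.65 (0.16 to 1.20) rests on 25 to 123 counts per library. At the other end WDR12 had 171, 55.3, 206 and 54.6 CPM and -1.62 (-1.88 to -1.39). NOC3L had 85.8, 34.7, 80.8 and 25.4 CPM and -1.29 (-1.63 to -0.98). WDR12 forms the PeBoW complex with BOP1 and PES1, and BOP1 stood near 0 with 1266, 1212, 1091 and 994 CPM and -0.063 (-0.13 to 0.0045), while PES1 had 12, 18, 9 and 14 counts. The related GTPases GNL2 (-0.67) and GNL3L (-0.34), NOC2L (-0.36), NOL9 (-0.33) and BRIX1 (-0.57) were below 0, and NOP53 (-0.051), NOP16 (-0.027) and RRP8 (0.10) were near it.

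The 4 nucleolar hub proteins over the minimum were split. NCL had 5555, 8257, 5929 and 8044 CPM, and its enrichment of 0.57 (0.54 to 0.60) in shCTL lay just under the 1.5-fold line at 0.58. MYBBP1A, a nucleolar regulator of transcription, was at 0.33 (0.11 to 0.55), and NOLC1, a scaffold for snoRNPs, at 0.31 (-0.11 to 0.74). NPM1 was depleted, with 127, 66.2, 116 and 56.5 CPM and -0.94 (-1.19 to -0.70). Its 3 listed transcripts differed, since the leading one had 265, 199, 140 and 161 counts and another had 17, 57, 11 and 16 counts.

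The leading transcripts of the members had a median of 14 exons, against 9 over all tested genes, a median length of 2702 against 3590 nt, a median 3′ UTR of 507 against 1443 nt and a median GC content of 46.9% against 51.4%. A median of 43.9% of their bases lay over 100 bases from an exon junction, against 67.3% over all tested genes, while GGACT was about as dense, at 0.987 against 0.960 per kb. The 2 members of 1 exon, UTP3 and RRS1, had a median enrichment of 1.26 in shCTL, and the 46 with more exons had -0.34. Over all tested genes the same medians were 1.02 (226 genes) and -0.15 (5066 genes). The 30 members with a GGACT over 100 bases from a junction had a median of -0.24 and the 18 without one -0.47, against -0.015 and -0.41 over all tested genes. NOP53, NOP58, NPM1, NOLC1 and NOC2L held no GGACT in the leading transcript.

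Among the members, enrichment in shCTL went along with GC content (Spearman's rho 0.47 across 48 genes, 0.36 over all tested genes) and inversely with the number of exons (-0.28 and -0.26). These points share the same 2 libraries, and genes are not independent replicates. WDR12 ran against the pattern of junctions, since 83.2% of its bases lay over 100 bases from a junction and its 3′ UTR of 6602 nt held 4 of its 6 GGACT. NOC4L ran against that of GC, with 64.2% GC and an enrichment of -1.12. With a trend on GC content over all genes removed, the median of the members in shCTL was -0.28 in place of -0.33.

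**Figure D3:**
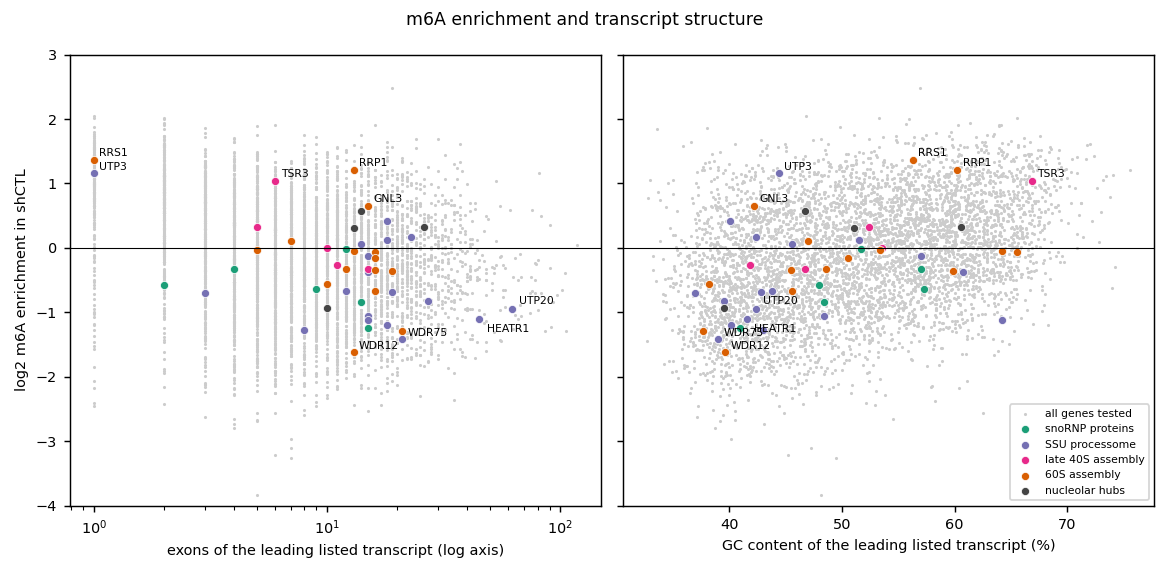
Log2 m6A enrichment in shCTL against the number of exons (left, log axis) and the GC content (right, %) of the leading listed transcript, with the 5292 tested genes that have an annotated transcript in grey and the 48 members coloured by role, 1 point per gene. UTP3 and RRS1, of 1 exon, lie above 1, while UTP20 (62 exons) and HEATR1 (45 exons) lie near -1.

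The comparison of shALKBH5 with shCTL asks which transcripts differ in IP share over input share, relative to the other genes, when ALKBH5 is lowered. Each library was scaled to its own total, so a rise or fall of m6A common to all transcripts does not show. A value below 0 thus does not by itself mean less m6A on a transcript. The paper reports that m6A peaks gained abundance and coverage after ALKBH5 knockdown. No member passed 1.5-fold: 0 of 48 had a higher enrichment in shALKBH5 by that much, against 5.38% of all genes tested, and 0 had a lower one, against 5.09%. The differences were small and mostly negative, with a median of -0.081, 35 of 48 below 0 and a range from -0.52 (WDR75) to 0.29 (GNL3). Over all tested genes the median was 0.0036 and 50.5% were above 0, against 27.1% of the members. The 95% interval lay below 0 for 12 members (25%), against 8.06% of all genes tested, and above 0 for 1 member (2.08%), against 8.18%. The members have more counts than most genes (median mean count 549.5 against 182.25), which narrows their intervals. For genes that averaged 200 counts or more, the shares were 32.4% of 37 members against 9.8% of 2491 genes below 0, and 2.70% against 11.4% above 0. A change of enrichment uses the same inputs as the change of input RNA given further on, so the 2 measures are not independent.

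In the snoRNP group NOP58 had a lower enrichment in shALKBH5, at -1.73 against -1.24 in shCTL, a change of -0.49 (-0.74 to -0.25). Its share of the input was alike in the 2 populations, with a log2 difference of -0.036 (-0.19 to 0.12), while its share of the IP was lower, with -0.53 (-0.71 to -0.34). FBL had a change of -0.20 (-0.32 to -0.084), whereas that of NOP56, its partner in the same particle, was -0.033 (-0.11 to 0.041). The box H/ACA proteins had intervals across 0, from -0.18 for NHP2 to 0.031 for DKC1.

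In the SSU processome 13 of 18 members had a change below 0, with a median of -0.16. WDR75 had the lowest value of all members at -0.52 (-0.93 to -0.12), next to NOL11 at -0.51 (-0.82 to -0.20), and WDR43, another UTP-A subunit, had -0.39 (-0.57 to -0.21). UTP18 had 179, 187, 185 and 139.8 CPM, so that its input shares were alike and its IP share was lower in shALKBH5, a change of -0.47 (-0.76 to -0.18). UTP6 had 267, 166, 331 and 161 CPM and a change of -0.35 (-0.61 to -0.11). WDR46 had 354, 324, 381 and 295 CPM and -0.24 (-0.44 to -0.032). HEATR1, on 51 to 122 counts per library, lay on the other side at 0.23 (-0.46 to 0.92), as did UTP25 (0.21, -0.030 to 0.44), UTP23 (0.20, -0.69 to 1.09), NOC4L (0.15, -0.11 to 0.40) and BMS1 (0.042, -0.10 to 0.18), all with intervals across 0. The remaining members ran from -0.23 (UTP11) to -0.040 (WDR3), with UTP14A, UTP3, UTP20, NOP14 and RRP9 between them.

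Of the late 40S factors, TSR1 had 339.6, 270.0, 357 and 215 CPM and a change of -0.40 (-0.62 to -0.18). LTV1 (-0.23, -0.55 to 0.078) and NOP9 (-0.10, -0.33 to 0.14) were below 0 with intervals across it, and TSR2 (0.10, -0.26 to 0.46) and TSR3 (0.20, -0.051 to 0.46) above 0. In 60S assembly, NOC2L had 1518, 1181, 1659 and 1082 CPM and a change of -0.26 (-0.36 to -0.15), and NOP53 had 754, 728, 769 and 634 CPM and -0.23 (-0.37 to -0.085). RRS1 was the 1 member with an interval above 0, at 0.24 (0.00081 to 0.48), and the lower bound was close to 0. RRP1, next to RRS1 in enrichment, had 0.074 (-0.055 to 0.20). WDR12 and NOC3L, the lowest members of this group, had -0.28 (-0.66 to 0.094) and -0.36 (-0.91 to 0.18), while GNL3 was at 0.29 (-0.55 to 1.16). The other 8 of the 15 lay between -0.18 (NOP16) and 0.046 (GNL3L).

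All 4 hub proteins had a change below 0, with a median of -0.11. NCL, at -0.13 (-0.18 to -0.084), rests on 7775 to 32568 counts per library and had the narrowest interval of the 4, and the values of NOLC1 (-0.28, -0.92 to 0.35), NPM1 (-0.090, -0.50 to 0.32) and MYBBP1A (-0.059, -0.40 to 0.29) had intervals across 0. With these 4, the median changes of the 5 groups were -0.11 for the snoRNP proteins, -0.16 for the SSU processome, -0.097 for late 40S assembly, -0.044 for 60S assembly and -0.11 for the hubs. The genes of a group share libraries, and the groups were not tested against each other.

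**Figure D4:**
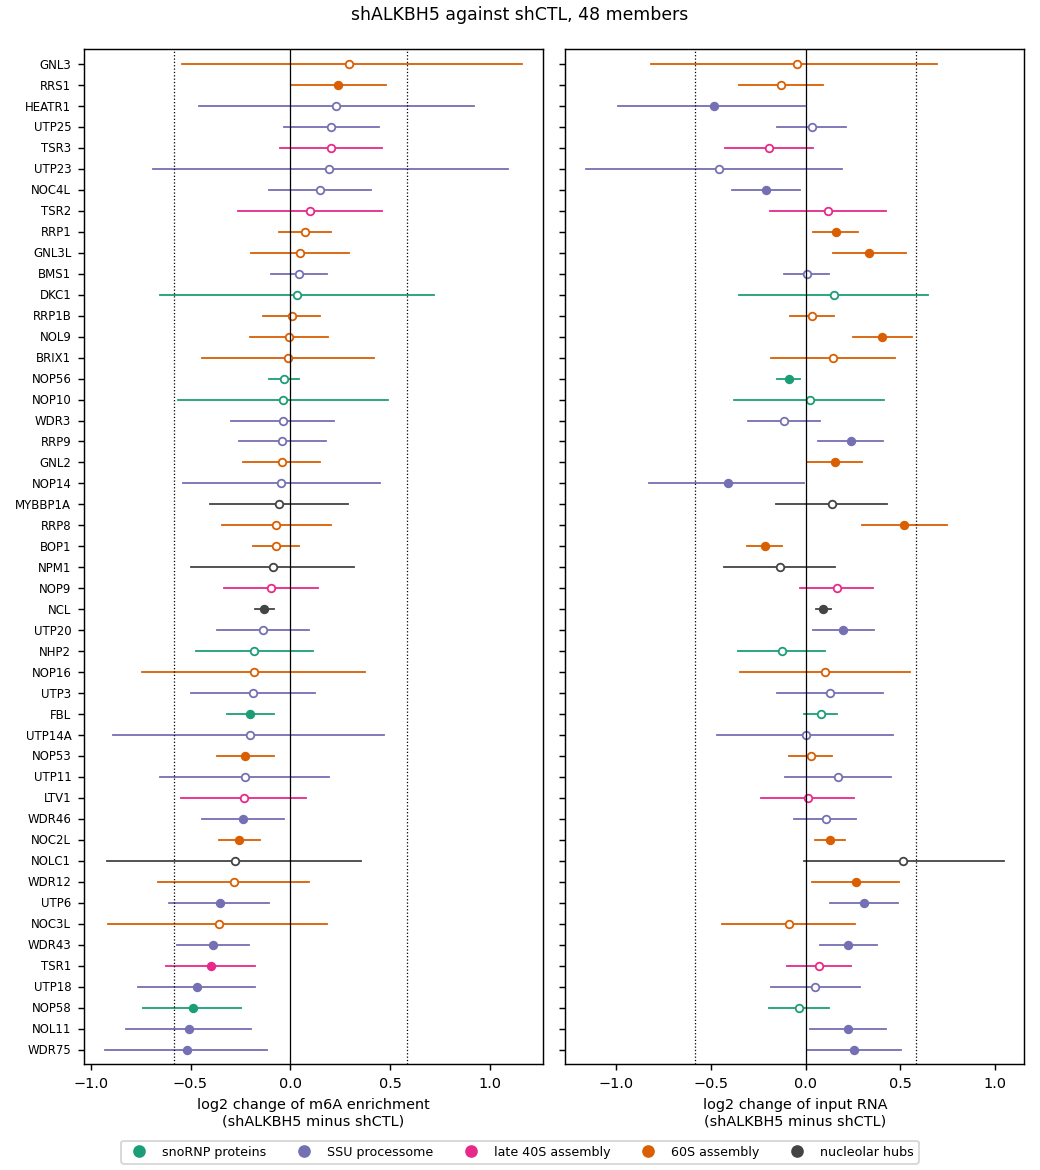
Log2 change of m6A enrichment (left) and of input RNA (right), shALKBH5 minus shCTL, for the 48 members ordered by the left value and coloured by role, with 95% counting intervals as lines, dotted lines at 1.5-fold and filled points where the interval leaves out 0. Filled points lie below 0 for 12 members and above 0 for RRS1 on the left, and above 0 for 14 and below 0 for 5 on the right.

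Of the 48 members, 9 (18.75%) carry snoRNAs in the annotation, against 2.25% of the tested genes. The snoRNAs lie in NOP56 (among them SNORD57 and SNORD86), NOP58 (SNORD11 and SNORD70), NCL (SNORD20, SNORD82 and SNORA75), DKC1 (SNORA36A and SNORA56), WDR43 (SNORD53 and SNORD92), NOL11 (SNORA38B), TSR1 (SNORD91A and SNORD91B), NOP53 (SNORD23) and GNL3 (SNORD19 and SNORD69). The interval of the change of enrichment lay below 0 in 6 of these 9 hosts (66.7%) and in 6 of the other 39 members (15.4%). Over all tested genes it lay below 0 in 31 of 119 hosts (26.1%) and in 395 of the other 5173 genes (7.64%). The groups were not tested against each other or matched for depth, and hosts were singled out with these values known. More counts narrow an interval, and all 12 members with an interval below 0 averaged 200 counts or more. Of the hosts with intervals across 0, DKC1 and GNL3 averaged 78.25 and 77.25 counts and NOP56 averaged 6937.75. The medians of the change were -0.23 and -0.072, against -0.083 for 119 hosts and 0.0063 for the other genes tested. Whether reads from introns or from snoRNAs entered the counts was not tested.

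Changes of the members' input RNA between the 2 cell populations stayed under 1.5-fold and were more often above 0 than below. In bulk RNA fewer cells that make a transcript and less of it per cell cannot be told apart. No member passed 1.5-fold, with 0 of 48 higher in shALKBH5, against 3.44% of all genes tested, and 0 lower, against 6.43%. The median log2 change was 0.087, with 34 members above 0 and 14 below, while the median over all tested genes was -0.020 and 47.5% were above 0. The interval lay above 0 for 14 members (29.2%), against 12.9% of all genes tested, and below 0 for 5 members (10.4%), against 15.6%. With a mean of at least 200 counts it lay above 0 for 37.8% of 37 members against 17.5% of 2491 genes, and below 0 for 8.11% against 21%.

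RRP8, a methyltransferase of the 28S rRNA, had the largest change of the 48, with 162, 174, 233 and 238 CPM and 0.52 (0.30 to 0.75). NOL9, a kinase that acts on the ends of the spacer between the rRNAs, had 352, 279.9, 467 and 369 CPM and 0.41 (0.25 to 0.56). The GTPase GNL3L had 232, 183, 294 and 239 CPM and 0.34 (0.14 to 0.53). In these 3 genes the IP share was higher too, by 0.45, 0.40 and 0.38, so that their enrichment was nearly the same in both populations. The other 60S members with intervals above 0 were WDR12 (0.27, 0.037 to 0.50), RRP1 (0.16, 0.040 to 0.28), GNL2 (0.15, 0.0098 to 0.30) and NOC2L (0.13, 0.051 to 0.21). GNL2 had 442, 278, 493 and 300.2 CPM.

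In the SSU processome the intervals of UTP6 (0.31, 0.13 to 0.49), WDR75 (0.26, 0.0070 to 0.51), RRP9 (0.24, 0.068 to 0.41), WDR43 (0.23, 0.074 to 0.38), NOL11 (0.22, 0.021 to 0.43) and UTP20 (0.20, 0.038 to 0.36) lay above 0. UTP20, a scaffold of the processome, had 349, 179.7, 401 and 188 CPM, and RRP9 had 306, 237, 361 and 272 CPM. Lower in shALKBH5 were HEATR1 (-0.48, -0.99 to -0.0046), NOP14 (-0.41, -0.83 to -0.0090) and NOC4L (-0.21, -0.39 to -0.028). NOP14, which forms a pair with NOC4L in the processome, had 75.1, 82.1, 56.4 and 59.7 CPM, and NOC4L had 336, 154, 291 and 147 CPM. Outside this group BOP1 (-0.21, -0.31 to -0.12) and NOP56 (-0.090, -0.15 to -0.029) were lower and NCL (0.094, 0.053 to 0.13) was higher, each on many counts (1431 or more per library). The largest of the values with an interval across 0 was that of NOLC1, at 0.51 (-0.0088 to 1.05). The 5 lower members came from 3 role groups.

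The 10 members under the minimum were listed with few counts. TCOF1, the treacle protein that links RNA polymerase I to rRNA processing, had 33, 83, 19 and 64 counts and missed the minimum by less than 1 count. NOL8 had 21, 37, 20 and 38 counts, NOP2, an rRNA methyltransferase, had 15, 35, 12 and 23 counts, and UTP4 had 20, 10, 21 and 8 counts. NAT10, the enzyme that acetylates cytidine in rRNA, had 29, 29, 18 and 8 counts, and its IP share was 7.35 CPM in shCTL and 2.54 CPM in shALKBH5. This gave the lowest change of enrichment among the 10, -1.45 (-3.24 to -0.072), on 8 counts in the shALKBH5 m6A-IP. NOL6 had 4, 4, 8 and 4 counts and UTP15 had 4, 3, 2 and 1 counts. NOL10 had 1 count in the shCTL input and 0 in the other 3 libraries, where a count of 0 allows up to 0.761 CPM (shCTL m6A-IP), 2.29 CPM (shALKBH5 input) and 0.953 CPM (shALKBH5 m6A-IP). Low values here do not show low expression of genes with several listed transcripts, for the reason given with the levels.

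Exons of 19 of the 58 members overlap an annotated gene on the opposite strand, among them NOC2L with SAMD11, TSR1 with SRR, NOP53 with NOP53-AS1, NOP14 with NOP14-AS1 and GNL2 with DNALI1. Whether the counting used strand is not given in the sources used here, so reads of such pairs cannot be told apart. RRP1 and RRP1B are paralogs, as are the GTPases GNL2, GNL3 and GNL3L.

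Other genes of the pathway were taken from 5 lists, 88 genes with 58 over the minimum. Their median enrichment was -0.33 in shCTL and -0.34 in shALKBH5, with 11 of 58 enriched and 20 of 58 depleted 1.5-fold in shCTL, against 22.5% and 30.3% of all genes tested. The median change of enrichment was -0.032, with 30 of 58 below 0, and that of the input 0.12, with 33 above 0. By 1.5-fold, 2 of the 58 had a higher enrichment, against 5.38% of all genes tested, and 0 a lower one, against 5.09%. The input was higher in 1, against 3.44%, and lower in 2, against 6.43%. By list the change of enrichment had a median of -0.32 for 8 genes of the exosome and exonucleases, -0.054 for 14 other 40S factors, -0.056 for 8 genes of snoRNP assembly, -0.036 for 7 genes of RNA polymerase I and 0.028 for 21 other 60S factors. Past 1.5-fold were KRR1, a 40S factor with 180, 86, 57 and 75 counts, whose enrichment was higher in shALKBH5 by 1.01 (0.36 to 1.67) and whose input was lower by a log2 change of -0.88, and TBL3, a subunit of the processome, with 403, 1180, 193 and 1189 counts and a change of enrichment of 0.63 (0.35 to 0.91). WDR74, a 60S factor, had 319, 193, 443 and 247 counts and a higher input share (1.24), and MDN1, the large ATPase of 60S assembly, had 195, 217, 75 and 165 counts and a lower one (-0.60).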

How the data were processed

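m6A-seq libraries of 4 samples were grouped by their titles, 1 library per group. The deposited values are raw whole-number counts per Ensembl transcript. According to the submitters' processing notes and the methods, the authors used bcl2fastq 2.0, fastp 0.23.2, HISAT2 on hg38, SAMtools 1.9, StringTie and MACS2. StringTie is given for gene quantification, but whether it wrote these tables, and with what annotation release and use of strand, is not given in the sources used here. Peak calls were not analysed here, and part of the HEK293 marker list is not reported here.

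Counts were summed per gene name and divided by the library total (CPM). Log2 ratios used a pseudocount of 0.5 CPM, a minimum mean of 50 counts per library and a 1.5-fold call. Intervals at 95% were exact, from the counts without the pseudocount: binomial for a ratio of 2 libraries and the conditional odds ratio for a change of enrichment. No p-value was computed. The limit of a count of 0 was set at 3 counts. Totals of 1311390 to 3944402 counts limit the precision, with a median half-width of 0.26 (log2) for the members' changes of enrichment.

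Transcript structure and sequence came from hg38 with Gencode v44, which holds 98.1% of the listed transcripts, and 89.3% of those had the length given in the tables. Members, role groups, pathway lists and features were chosen with earlier results of these data known. Each member is described within its role group, with values in all libraries for the box C/D, box H/ACA and PeBoW proteins, the highest count of each group, the 3 highest and 3 lowest enrichments in shCTL and members with an interval off 0. TBL3, KRR1, WDR74 and MDN1 were named for passing 1.5-fold.

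Alternatives were edgeR 4.0.16 TMM factors, DESeq2 1.42.0 size factors, pseudocounts of 0.1 and 2 CPM, a minimum mean of 10 or 200 counts, no such minimum, the highest-count transcript alone, thinning to the smallest total, a lowess trend on GC content removed (span 0.3), and a 2-fold threshold. The steps were run on simulated data with counting error alone, which is the error that the intervals assume. The simulation therefore says nothing on other variation between libraries. Python 3.11.15 with numpy 2.4.6, pandas 2.3.3, scipy 1.17.1, statsmodels 0.14.6 and matplotlib 3.10.9 were used, with R 4.3.3.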

Additional observations from a re-analysis of the deposited data

How the results depend on the processing

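The medians of the members, and the counts of members on either side of 0, kept their direction under every alternative that was run. Counts of members past 1.5-fold, 0 as reported, moved with the minimum count and with thinning. A lower change of enrichment was passed by 3 of 54 members with a mean of at least 10 counts (13.0% of all genes under that setting), by 4 of 58 with no filter (21.4%) and by 2 of 43 after thinning (4.71%), and a higher one by 2 with no filter (22.7%). A higher input was passed by 2 (9.32%), 3 (15.3%) and 1 members (2.49%) under the same settings, and a lower input by 2 with no filter (19.9%). With a mean of at least 200 counts, 3 of 37 intervals of the change of input lay below 0 (21% of all genes) in place of 5 of 48. At a 2-fold threshold 4 members were enriched (10.1% of all genes) and 9 depleted (16.9%) in shCTL, and 3 were enriched (637 of 5320 genes) and 10 depleted (18.4%) in shALKBH5. Removing the trend on GC content brought the members' median enrichment to -0.28 in shCTL and -0.30 in shALKBH5, with 37.5% of changes above 0 in place of 27.1%. It moved 71 of its 192 values of single members out of their intervals, as did thinning 3 of 172 and the highest-count transcript alone 1 of 192, and none moved under the other alternatives run on single members. TMM and DESeq2 factors gave a median change of -0.067 and -0.073. Intervals were not computed for the GC alternative. No paired analysis was possible because there is 1 library per group, and for the same reason no library could be left out. The depth of the shALKBH5 input limits the changes of members with few counts, such as GNL3, UTP23 and DKC1.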
